A study of Homo sapiens with 8 samples.

Results

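Genes of the NF-kB pathway and of the cytokines and chemokines it controls were followed in CAKI1, an established line of human renal carcinoma cells, after stimulation with hLcn-2, the iron-bound (holo) form of lipocalin-2. Of 38 genes listed by symbol, 36 had a row among the 16782 genes of the normalized count table and all 36 passed the filter on low values, whereas IL1A and TNF were not analysed here. The members were grouped by their role into 5 NF-kB subunits, 6 inhibitors and feedback proteins, 8 adaptors and ligases, 2 targets that act on or in the cell, 7 chemokines, 6 cytokines and 2 soluble innate proteins. The 19 genes of the first 3 roles are called the pathway members below, and the 15 genes of the last 3 roles the secreted members.

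Control samples were unstimulated CAKI1 cells (n = 4), and hLcn-2 samples were CAKI1 cells kept for 24 h in hLcn-2 at 5 µg/ml (n = 4). Cells of both groups were starved of serum for 24 h before stimulation. The protein was human Lcn-2 made in bacteria with a GST tag and passed over a resin that removes endotoxin, and cells given apo-Lcn-2 or the tag alone were not analysed here. Samples carry the numbers 1 to 4 in each group, and the labels do not say whether a number marks a separate culture, so that p-values measure the spread between these samples only.

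RNA was read with 3′ mRNA sequencing, in which 1 fragment stands for the end of 1 transcript and copies made by PCR are collapsed by a molecular identifier. Values are normalized counts on the scale of CPM (reads scaled to a library of common size) and are not divided by transcript length. Levels of different genes are set side by side only to order genes by mean, to mark those with few reads and in sums over lists. The libraries held 1501563 to 13953090 reads, so that 3 reads correspond to between 0.211 and 1.98 CPM. Of 12 markers of kidney epithelium 9 had a row, and 8 of them, including PAX8, KRT8, KRT18, CDH2 and VIM, had more than 3 reads in every sample, while KRT19, CA9 and LRP2 had no row. The summed level of the 9 markers lay between 2041 and 2894 CPM in control and between 2375 and 3069 CPM in hLcn-2 samples. Most of this sum came from VIM, with a mean of 1769 CPM over all samples. Means were 463 CPM for CDH2, 225 for PAX8, 94.8 for KRT18 and 31.2 for KRT8. Leukocyte markers summed to 3.52 to 5.82 and 3.26 to 4.94 CPM in these groups, with 3 of 10 in the table and no row for PTPRC. Markers of endothelium and fibroblasts summed to 3.70 to 6.58 and 2.47 to 5.78 CPM, with 2 of 8 in the table.

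NF-kB is a family of dimeric transcription factors that is held in the cytoplasm by inhibitor proteins of the IkB type. Signals from receptors of the TNF, interleukin and Toll-like families run through adaptors and ubiquitin ligases to a kinase complex that marks the inhibitor for degradation, after which the dimers enter the nucleus. Many of the genes they switch on encode secreted chemokines and cytokines, and others encode the inhibitors themselves, which closes a negative feedback loop. In renal carcinoma and in injured renal tubules the pathway is known as a source of inflammatory mediators.

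The DNA element that NF-kB dimers bind is shown for members on which the results below turn, since both inhibitors and chemokines carry it. Windows of 250 bases before to 50 after the RefSeq start (GRCh38.p14) were found for 29 of 36 members and were searched on both strands for GGGNNTTTCC and for the wider form GGGNNNTTCC, which includes the first. The stretches below are printed in the direction of their gene, with the match in capitals. In NFKBIZ (chr3:101827747-101827796, plus strand) the match started 223 bases before the gene, in CXCL1 (chr4:73869294-73869343, plus strand) 79 bases, in CXCL2 (chr4:74099244-74099293, minus strand) 78 bases and in CXCL5 (chr4:73998739-73998788, minus strand) 91 bases, all on the strand of the gene. In TNFAIP3 (chr6:137867172-137867221, plus strand), BIRC3 (chr11:102317265-102317314, plus strand) and NFKBIA (chr14:35404801-35404850, minus strand) it was read on the other strand, 67, 199 and 81 bases before the start. TNFAIP3 held another match on the other strand, 55 bases before the start, which stands in lower case within its stretch.
NFKBIZ: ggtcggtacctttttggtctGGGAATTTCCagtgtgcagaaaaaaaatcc
TNFAIP3: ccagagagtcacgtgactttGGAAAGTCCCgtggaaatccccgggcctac
BIRC3: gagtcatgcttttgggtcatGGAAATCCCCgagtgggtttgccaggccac
NFKBIA: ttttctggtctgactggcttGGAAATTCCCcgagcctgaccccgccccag
CXCL1: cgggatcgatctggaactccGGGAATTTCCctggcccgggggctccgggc
CXCL2: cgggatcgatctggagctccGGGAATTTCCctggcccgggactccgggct
CXCL5: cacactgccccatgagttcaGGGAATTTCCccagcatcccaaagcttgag

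Both forms were found in 17 of the 29 members with a window (58.6%), beside 2.33% of all 27305 RefSeq genes with the narrow and 7.83% with the wider form in any of their windows (1.91% and 6.52% of all 35116 windows). The wider form also matched on the other strand, shifted by 1 base, in REL, CXCL1, CXCL2, CXCL3, CXCL5 and NFKBIB. A match was present in 7 of 10 secreted and in 10 of 17 pathway members with a window. Windows of CXCL8 and IRAK1 did not hold these letters, which says nothing about binding there. Of the 17 members with a match 12 were lower in hLcn-2 cells, with a median log2 fold change of -0.060, and of the 12 members without one 7 were lower, with a median of -0.055.

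None of the 36 members was differentially expressed between control and hLcn-2 samples in limma (adjusted p under 0.05 over 15593 genes), where the share of all genes called was 0%. At an unadjusted p under 0.05 the test named 3 members, NFKBIZ, TNFAIP3 and BIRC3, all 3 lower in hLcn-2 cells, beside 2.28% of all genes in either direction. All 3 act inside the pathway, and none is a secreted member. Because same-numbered samples of both groups shared their deviations from the group means, the fit was repeated with the number as a replicate block, and again called 0 members, beside 0.282% of all genes. Without the block the adjusted p of limma was 1.0 for every member, so that adjusted p-values below 1.0 given for limma come from the fit with the block. In limma with the block 5 members had an unadjusted p under 0.05, and all 5 were lower. They were NFKBIZ, BIRC3, TNFAIP3, CXCL8 and IRAK1, where 5.53% of all genes were lower and 6.65% higher. On recovered reads with the block, both count models called NFKBIZ as lower and no other member. The background was 0.372% lower and 1.12% higher for the quasi-likelihood test of edgeR and 0.269% lower and 0.84% higher for DESeq2. At an unadjusted p under 0.05, edgeR with the block named 8 members, beside 2086 of 15593 genes. These were the 5 members above and NFKBIE, all lower, and RELB and TNFAIP2, which were higher. DESeq2 with the block named 3, NFKBIZ, TNFAIP3 and BIRC3, beside 1151 genes. In bulk RNA, fewer cells that make a transcript and less of it per cell cannot be told apart.

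In the same-numbered pairs, 7 members were lower in hLcn-2 in 4 of 4 (NFKB2, NFKBIZ, TNFAIP3, BIRC3, IRAK1, CXCL8 and C3), beside 10.9% of all genes. RELB, TNFAIP2 and CCL20 were higher in 4 of 4 pairs, beside 9.93% of all genes. The 4 signs alone cannot give an exact p-value under 0.125. No member had groups without overlap, where 0.988% of all genes were lower and 0.891% higher without overlap. Over all members, 22 log2 fold changes were below and 14 above 0 with a median of -0.052, while the median over all genes was 0.00083.

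Exons of 14 of the 36 members overlap those of another gene in GENCODE 44, which limits the values of these members because the strand used in counting is not known. The overlap is on the same strand for REL, NFKBIZ, IL32 and C3. It is on the opposite strand for RELA, NFKBIB, TNFAIP3, BIRC3, ICAM1, TNFAIP2, CXCL5, IL6, LIF and PTX3.

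**Figure D1:**
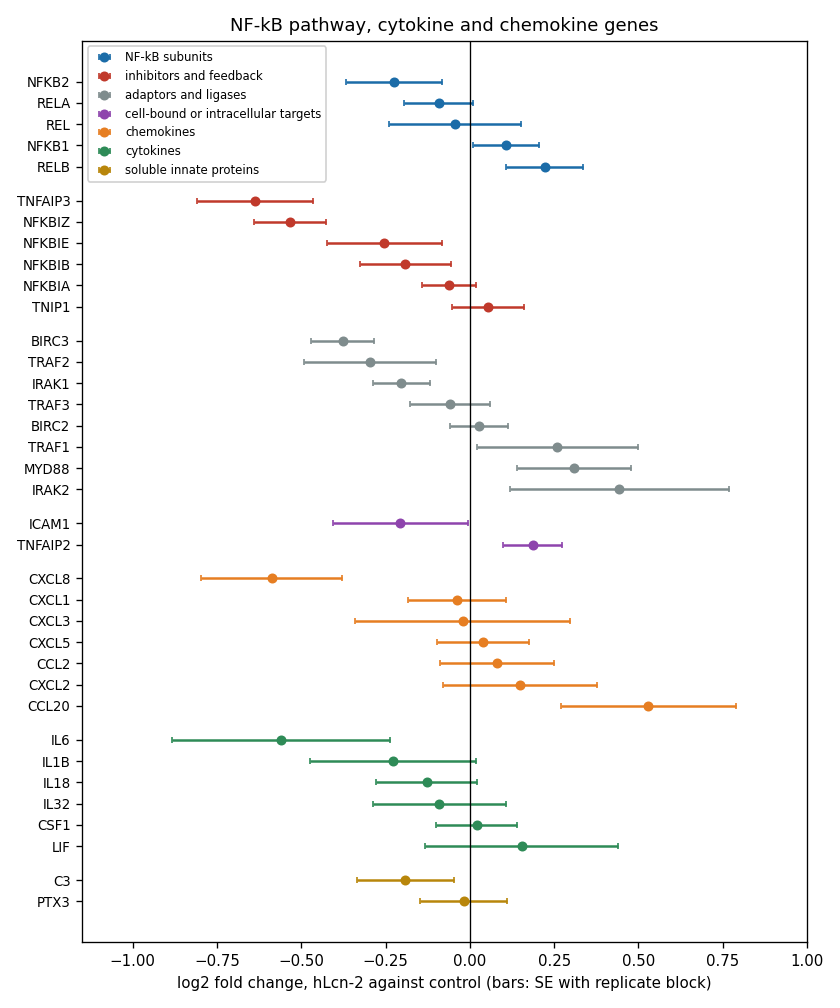
Log2 fold change of hLcn-2 against control on the log2(CPM + 1) scale for the 36 members, ordered within their role, with bars for the standard error of limma with the replicate block. Of the 6 inhibitors 5 lie left of 0, with TNFAIP3 at -0.64 and NFKBIZ at -0.53, while chemokines reach from CXCL8 at -0.59 to CCL20 at 0.53.

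Among the subunits, NFKB1, which encodes the precursor of p50, had 68.6, 73.4, 76.3 and 52.7 CPM in controls 1 to 4 and 64.7, 90.3, 73.6 and 63.7 CPM in hLcn-2 samples 1 to 4. The groups overlapped, with a log2 fold change of 0.11 (standard error with the block 0.099). RELA, the transactivating partner of p50, was at 113, 89.0, 85.0 and 142 CPM in controls and at 114, 96.4, 83.9 and 101.3 CPM in hLcn-2 samples, with log2 differences of 0.014, 0.11, -0.017 and -0.48 in pairs 1 to 4, so that the pair numbered 4 stood apart. RELB, the transactivating subunit of the non-canonical branch, had 33.9, 33.7, 46.9 and 46.8 CPM in controls and 37.0, 51.4, 47.4 and 52.2 CPM in hLcn-2 samples. It was higher in every pair by 0.015 to 0.60 on the log2 scale, but had an adjusted p of 0.478 in limma with the block. NFKB2, its partner precursor, went the other way at -0.22 (standard error with the block 0.14, adjusted p = 0.572) and was lower in every pair, although leaving out single samples moved it between -0.41 and -0.051. REL had a log2 fold change of -0.044 and pairs on both sides of 0, from -0.51 to 0.63. Summed over the 5 subunits, levels were 245.7 ± 21.5 CPM in controls and 246.5 ± 17.9 CPM in hLcn-2 samples (SD, n = 4 each).

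The largest differences of the pathway members lay among inhibitors. NFKBIZ, a nuclear IkB protein that modulates NF-kB at selected promoters, had 48.0, 55.9, 82.7 and 56.0 CPM in controls 1 to 4 and 37.0, 34.1, 65.7 and 33.1 CPM in hLcn-2 samples 1 to 4. The log2 difference was -0.37, -0.70, -0.33 and -0.74 in pairs 1 to 4, although hLcn-2 sample 3 lay above 3 of the controls. Group means were 60.6 ± 15.2 and 42.4 ± 15.6 CPM (SD, n = 4 each), with a log2 fold change of -0.53. Its standard error was 0.23 without the block and 0.11 with it, and the adjusted p of limma changed from 1.0 to 0.0569. The adjusted p was 0.0184 in the quasi-likelihood test of edgeR and 0.0138 in DESeq2, both with the block, and lay between 0.0138 and 0.307 over the 11 fits with the block. The highest value came from leaving out the pair numbered 2 (log2 fold change -0.48). In GRCh38 the gene lies at chr3:101827991-101861022 on the plus strand with 12 exons, and NXPE3 shares exon sequence on the same strand.

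TNFAIP3 encodes a ubiquitin-editing enzyme that shuts off signalling to NF-kB and is itself a target of NF-kB. Its values in every sample are given after they had been seen, as it is not among the 12 members of highest mean. It had 12.1, 17.0, 16.6 and 19.1 CPM in controls and 9.80, 12.4, 9.87 and 8.05 CPM in hLcn-2 samples. Only hLcn-2 sample 2 reached above the lowest control, so that the groups overlapped by a narrow margin. Means were 16.2 ± 2.93 and 10.0 ± 1.79 CPM (SD, n = 4 each), with a log2 fold change of -0.64 (standard error 0.21 without and 0.17 with the block). The exact permutation test over samples gave p = 0.0571 (two-sided), where 0.0286 is the smallest value that 4 against 4 samples allow. This permutation test ignores the pairing of samples by number. The adjusted p of limma was 1.0 without and 0.149 with the block, and lay between 0.101 and 0.383 over the fits with the block. The gene lies at chr6:137867214-137883314 (plus strand), and WAKMAR2 overlaps its exons on the opposite strand.

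NFKBIA, the classical cytoplasmic inhibitor and an early target of NF-kB, had groups that overlapped over nearly their whole range. Its values were 171, 144, 295 and 163 CPM in controls and 182, 147, 251 and 148 CPM in hLcn-2 samples. The samples numbered 3 stood above the others in both groups, and 96.0% of its variation lay between numbers. The log2 fold change was -0.062 (standard error 0.081 with the block), with 2 pairs higher and 2 lower. TNIP1, which helps TNFAIP3 to restrain the pathway, had 96.4, 94.5, 98.9 and 96.1 CPM in controls and 87.0, 92.4, 92.3 and 136 CPM in hLcn-2 samples. It was lower in the first 3 pairs and higher in the pair numbered 4, with a log2 fold change of 0.054 (standard error 0.11). NFKBIB and NFKBIE, further cytoplasmic inhibitors, had log2 fold changes of -0.19 and -0.25 (standard errors 0.13 and 0.17) and were lower in 3 of 4 pairs each. The median log2 fold change of the 6 inhibitors was -0.22. Of them 2 had an unadjusted p under 0.05 in limma without the block, beside 2.28% of all genes. The 10 other inhibitors tested in the wider list below had a median of -0.017, with 4 above and 6 below 0. Of those 10, 0 had an unadjusted p under 0.05 in limma.

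**Figure D2:**
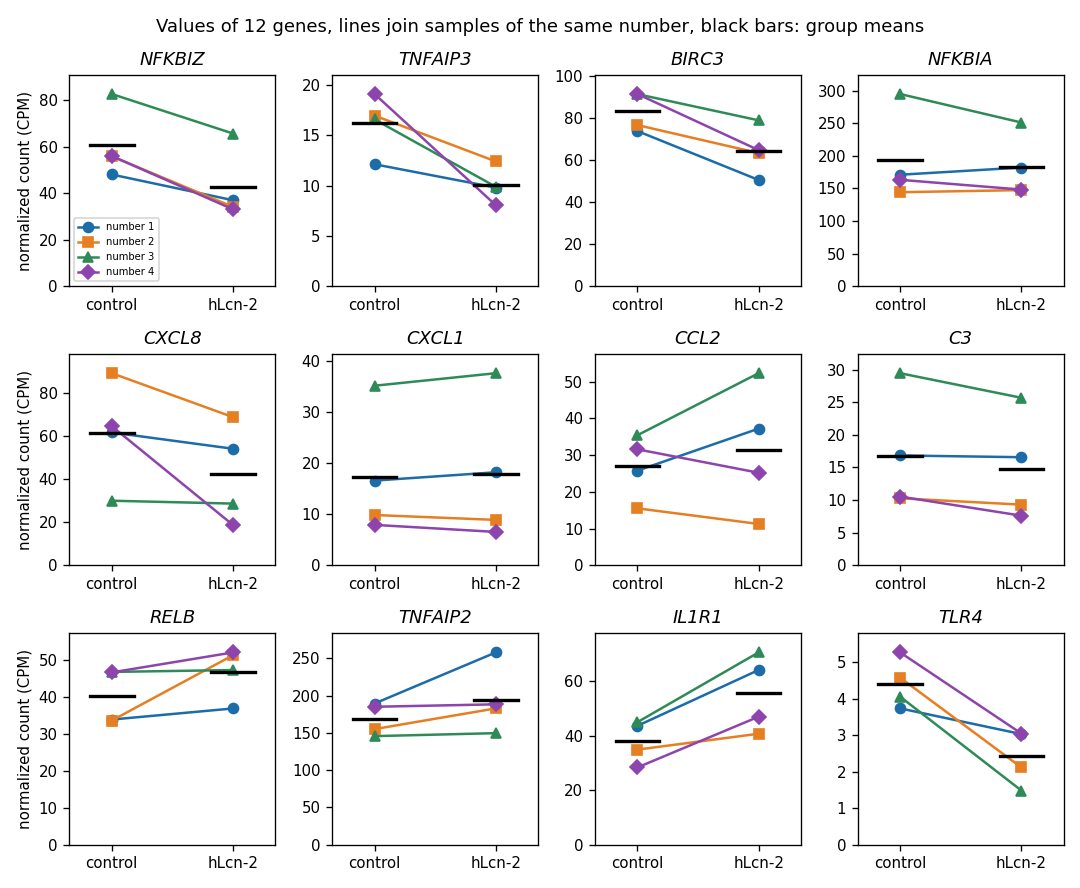
Normalized count (CPM) of 10 members and of the receptors IL1R1 and TLR4 in control and hLcn-2 samples, with lines joining samples of the same number and black bars for group means. NFKBIZ, TNFAIP3, BIRC3, CXCL8, C3 and TLR4 are lower at the hLcn-2 end of every line and RELB, TNFAIP2 and IL1R1 are higher there, whereas lines of NFKBIA, CXCL1 and CCL2 run in both directions.

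BIRC3, a ubiquitin ligase at TNF family receptors that both conveys NF-kB signals and restrains the non-canonical branch, had 73.9, 76.7, 91.5 and 91.5 CPM in controls and 50.6, 63.4, 79.0 and 64.8 CPM in hLcn-2 samples. Only hLcn-2 sample 3 lay within the range of the controls. Means were 83.4 ± 9.42 and 64.4 ± 11.6 CPM (SD, n = 4 each), with a log2 fold change of -0.38 (standard error 0.16 without and 0.094 with the block). The adjusted p of limma was 1.0 without and 0.120 with the block, and ranged from 0.0550 to 0.351 over the fits with the block. An antisense gene without a symbol overlaps exons of BIRC3 (chr11:102317484-102339403, plus strand).

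BIRC2, its neighbour and close relative, was at 95.9, 97.7, 87.6 and 87.6 CPM in controls and at 102, 103, 77.5 and 95.0 CPM in hLcn-2 samples, a log2 fold change of 0.027 (standard error 0.087). Its sign turned to -0.0039 when values were scaled to the column total. IRAK1, a kinase of interleukin and Toll-like receptors, had 183, 148, 108 and 171 CPM in controls and 156, 130, 82.0 and 171 CPM in hLcn-2 samples. Its log2 difference was below 0 in every pair, though only -0.0025 in the pair numbered 4, and averaged -0.20 (standard error 0.23 without and 0.085 with the block, adjusted p with the block 0.360 in limma). The samples numbered 3 were the lowest of both groups. TRAF3, an adaptor that also restrains the non-canonical branch, had 53.1, 48.0, 38.8 and 54.0 CPM in controls and 60.9, 54.7, 33.6 and 40.2 CPM in hLcn-2 samples, with 2 pairs on each side of 0.

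The other adaptors had lower counts. MYD88, the adaptor of interleukin and Toll-like receptors, lay between 7.24 and 14.3 CPM in controls and between 11.97 and 17.8 CPM in hLcn-2 samples, with a log2 fold change of 0.31 (standard error 0.17, adjusted p = 0.501 with the block). TRAF2 lay between 7.58 and 9.30 CPM and between 4.44 and 9.57 CPM (log2 fold change -0.30), and TRAF1, itself induced by NF-kB, between 2.82 and 5.93 CPM and between 2.49 and 8.03 CPM (0.26). IRAK2 had no read in control 4, whose limit of 3 reads is 1.98 CPM, so that its log2 fold change of 0.44 depends on the value added before the logarithm. Summed over the 8 adaptors and ligases, levels were 403 ± 35.7 CPM in controls and 370 ± 46.0 CPM in hLcn-2 samples (SD, n = 4 each).

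TNFAIP2, a TNF-inducible intracellular protein, had 189, 155, 146 and 185 CPM in controls and 258, 183, 150 and 188 CPM in hLcn-2 samples. It was higher in every pair, by 0.025 to 0.44 on the log2 scale, with a log2 fold change of 0.19 (standard error 0.087, adjusted p = 0.419 with the block). The adhesion molecule ICAM1, a widely used readout of NF-kB, lay between 5.42 and 6.58 CPM in controls and between 4.44 and 6.68 CPM in hLcn-2 samples, with a log2 fold change of -0.21 (standard error 0.20).

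Of the secreted members 6 had a log2 fold change above and 9 below 0. CXCL8, a chemokine that attracts neutrophils, had 61.6, 89.1, 29.97 and 64.5 CPM in controls and 54.1, 68.7, 28.6 and 18.7 CPM in hLcn-2 samples. It was lower in every pair, with means of 61.3 ± 24.3 and 42.5 ± 23.0 CPM (SD, n = 4 each) and a log2 fold change of -0.59 (standard error 0.39 without and 0.21 with the block, adjusted p of limma 1.0 and 0.280). The log2 difference was -1.73 in the pair numbered 4 and between -0.37 and -0.063 in the other pairs. In that pair control 4 is the shallowest library (1501563 reads), while the 18.7 CPM of hLcn-2 sample 4 came from a library of 4619920 reads. Without that pair the log2 fold change was -0.21 (adjusted p = 0.405, limma with the block). Over the fits with the block the adjusted p lay between 0.183 and 0.647. The gene lies at chr4:73740519-73743716 (plus strand).

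CXCL1, CXCL2 and CXCL3, which lie close together on chromosome 4 and bind the same receptor as CXCL8, are paralogs. The last 500 nt of their transcripts, where 3′ reads fall, were 52.9% to 66.1% identical, and whether reads of one were counted for another was not tested. CXCL1 had 16.6, 9.83, 35.1 and 7.90 CPM in controls and 18.2, 8.87, 37.5 and 6.52 CPM in hLcn-2 samples (values shown after they had been seen). The order of the numbers was the same in both groups, 99.1% of the variation of CXCL1 lay between numbers and 0.0512% between the groups. Its log2 fold change was -0.038 (standard error 0.14 with the block) and turned to 0.033 and 0.0081 in edgeR and DESeq2 with the block. CXCL2 lay between 3.95 and 15.001 CPM in controls and between 2.39 and 18.3 CPM in hLcn-2 samples, and CXCL3 between 0 and 8.03 and between 0.987 and 7.89 CPM, without a read in control 4.

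CXCL5, a further chemokine of this group, lay between 19.1 and 56.8 CPM in controls and between 28.9 and 54.9 CPM in hLcn-2 samples (log2 fold change 0.039, -0.018 in edgeR with the block). CCL2, which attracts monocytes, had 25.8, 15.5, 35.4 and 31.6 CPM in controls and 37.2, 11.3, 52.3 and 25.2 CPM in hLcn-2 samples (values shown after they had been seen). The log2 difference was 0.51 and 0.55 in the pairs numbered 1 and 3 and -0.43 and -0.31 in those numbered 2 and 4. CCL20 was the member of lowest mean at 1.06 CPM, with 0 reads in control 4 and at most 18 reads in a sample, so that its log2 fold change of 0.53 (standard error 0.26) rests on few reads.

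Of the cytokines, IL6 lay between 2.47 and 4.05 CPM in controls and between 0 and 3.92 CPM in hLcn-2 samples. It had no read in hLcn-2 sample 3, where 3 reads amount to 1.48 CPM, and a log2 fold change of -0.56 (standard error 0.32 with the block, adjusted p = 0.531 in limma). IL1B and LIF had 3 reads or fewer in at least 1 sample as well, with at most 25 and 48 reads. CSF1, the growth factor of macrophages, lay between 14.5 and 37.9 CPM and between 17.0 and 36.3 CPM, at a log2 fold change of 0.020 (standard error 0.12), with 98.0% of its variation between numbers. IL18, a cytokine of the interleukin-1 family, was at -0.13 on the log2 scale (standard error 0.15), and IL32 at -0.090 (standard error 0.20).

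The complement component C3 had 16.8, 10.3, 29.4 and 10.5 CPM in controls and 16.6, 9.30, 25.7 and 7.61 CPM in hLcn-2 samples (values shown after they had been seen). The log2 difference lay between -0.42 and -0.022 in the pairs and averaged -0.19 (standard error 0.14, adjusted p = 0.647 with the block in limma). The pentraxin PTX3 lay between 9.22 and 34.5 CPM in controls and between 11.3 and 30.6 CPM in hLcn-2 samples, with a log2 fold change of -0.018 and 97.9% of its variation between numbers.

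**Figure D3:**
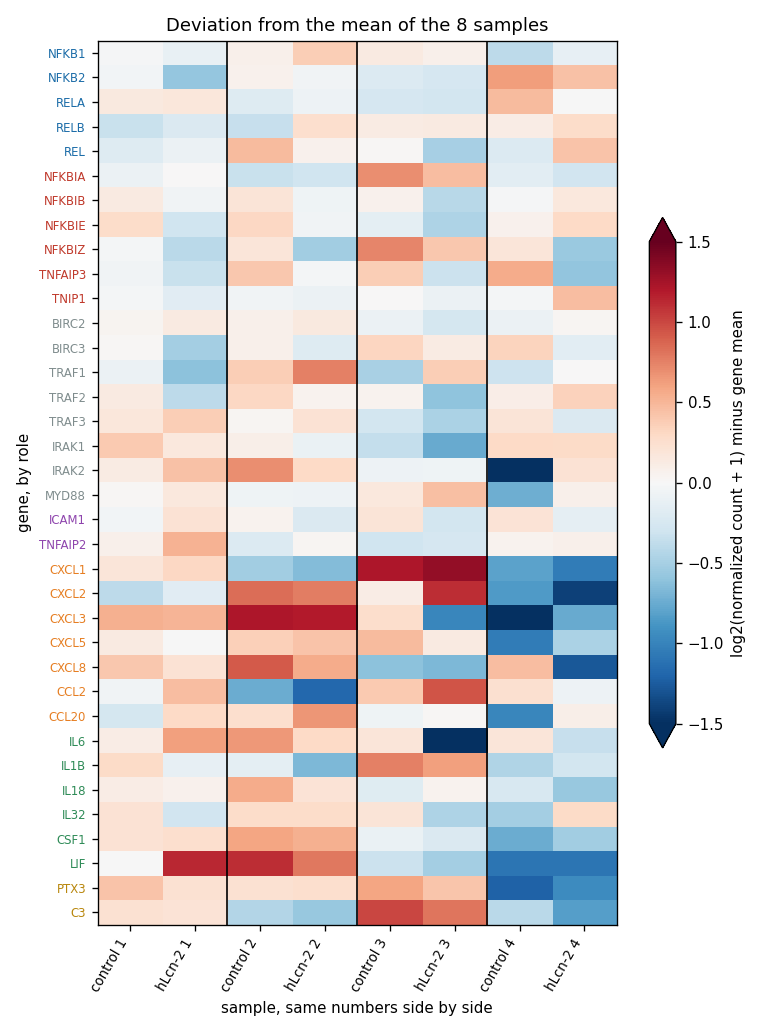
Deviation of log2(CPM + 1) from the mean of the 8 samples for each member (rows, by role), with samples of the same number side by side (columns) and colours limited at 1.5 in both directions. For CXCL1, CSF1, PTX3 and C3 both samples of a number share their colour, while NFKBIZ, TNFAIP3 and BIRC3 are paler or bluer in the hLcn-2 sample of each number.

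The median share of variation between replicate numbers was larger for secreted than for pathway members, and that between the groups was smaller. Both are parts of the same total, so they are not separate results. In both lists the median share between numbers exceeded that between groups. This is a description of both lists and was not tested. For each gene the variation of log2 values over 8 samples was split into shares between the 4 numbers, between the 2 groups and a rest. Shares were not corrected for there being 4 numbers but 2 groups. The share between numbers therefore tends to be the larger even in values without any effect. The median share between numbers was 87.0% for the 15 secreted and 57.2% for the 19 pathway members, beside 66.6% over all genes tested. The median share between control and hLcn-2 was 0.828% and 9.67%, respectively, beside 6.15% over all genes. Inhibitors had the highest median between groups of any role of the members (24.5%), and chemokines the lowest (0.391%). For the 10 other inhibitors of the wider list it was 3.37%. The share between numbers exceeded that between groups in all 15 secreted and in 17 of 19 pathway members, beside 14206 of all 15593 genes. TNFAIP3 (12.5% against 68.8%) and BIRC3 (42.6% against 50.5%) were the exceptions. As the split itself favours this order, the count is not read as a result about the members. With the 9 secreted and 16 pathway members of a mean of at least 10 CPM, medians between groups were 0.391% and 8.67%. A small share between groups need not mean a small fold change. The median absolute log2 fold change was 0.128 for secreted and 0.222 for pathway members, beside 0.140 over all genes. At a mean of at least 10 CPM it was 0.080 and 0.197, beside 0.110 over all such genes.

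The secreted members summed to 285, 326, 304 and 194 CPM in controls and to 280, 293, 296 and 161 CPM in hLcn-2 samples, so that the samples numbered 4 were lowest in both groups. Their means were 277 ± 58.3 and 257 ± 64.8 CPM (SD, n = 4 each), and the ratio of hLcn-2 to control was 0.980, 0.898, 0.975 and 0.831 in pairs 1 to 4. The pathway members summed to 1042, 985, 1115 and 1069 CPM in controls and to 980, 967, 973 and 1022 CPM in hLcn-2 samples. Their means were 1053 ± 54.3 and 986 ± 24.9 CPM, with ratios of 0.9404, 0.982, 0.873 and 0.956. The highest sample exceeded the lowest 2.03 times for the secreted and 1.15 times for the pathway members. Median log2 fold changes were -0.022 and -0.062.

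**Figure D4:**
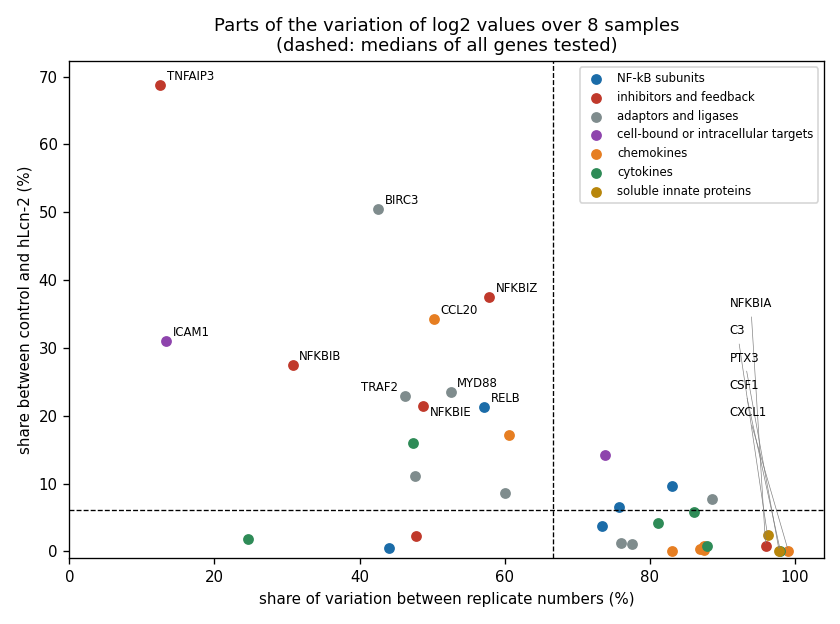
Share of the variation of log2(CPM + 1) over 8 samples that lies between replicate numbers (x axis, %) and between control and hLcn-2 (y axis, %) for the 36 members, coloured by role, with dashed lines at the medians of all genes tested (66.6% and 6.15%). TNFAIP3, BIRC3 and NFKBIZ lie highest, followed by the secreted CCL20 (34.3% between groups) and by ICAM1 (31.0%). NFKBIA, C3, PTX3, CSF1 and CXCL1 lie at the lower right, with over 95% between numbers.

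A wider list of 137 further genes of the pathway (receptors, signalling proteins, other inhibitors, receptors of the ligands above and other targets) had 109 genes tested, and limma called 0 of them without or with the block. Unadjusted p-values under 0.05 were found for 2 without and for 12 with the block, of which 6 were higher and 6 lower, beside 6.65% and 5.53% of all genes. Their log2 fold changes were above 0 in 59 and below 0 in 50 genes, with a median of 0.023. By the smallest p-values with the block, 8 genes are named.

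IL1R1, the receptor of IL1A and IL1B, had 43.6, 34.9, 44.9 and 28.3 CPM in controls and 64.1, 40.7, 70.6 and 47.0 CPM in hLcn-2 samples. It was higher in every pair with a log2 fold change of 0.53 (standard error 0.11 with the block), and its adjusted p with the block was 0.0621 in limma, 0.0193 in the quasi-likelihood test of edgeR and 0.0229 in DESeq2. Without the block the adjusted p was 1.0 in limma and in edgeR for IL1R1 and for PLK2. The antisense gene IL1R1-AS1 overlaps exons of IL1R1. PLK2, a stress-inducible kinase, had 316, 288, 215 and 355 CPM in controls and 279, 246, 151 and 255 CPM in hLcn-2 samples. It was lower in every pair at -0.35 on the log2 scale (standard error 0.081), and its adjusted p with the block was 0.0998, 0.0550 and 0.0439 in these tests. Leaving out single samples moved PLK2 between -0.49 and -0.15, the latter without hLcn-2 sample 3.

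TLR4, the receptor of bacterial lipopolysaccharide, had 3.73, 4.58, 4.05 and 5.27 CPM in controls and 3.03, 2.11, 1.48 and 3.04 CPM in hLcn-2 samples. The groups did not overlap, which was the case for 2 genes of the wider list, TLR4 and IRAK3, both lower, beside 0.988% of all genes. IRAK3, named after its values were seen, had a mean of 0.711 CPM from 1 to 13 reads a sample, with 3 reads or fewer in 3 samples. The log2 fold change of TLR4 was -0.68 (standard error 0.22, adjusted p = 0.234 in limma with the block). The exact permutation test, which ignores the pairing by number, gave p = 0.0286 (two-sided), the smallest value possible. Any gene without overlap between 4 and 4 samples has this value, so it adds nothing to the lack of overlap. TLR4 had 3 reads in the sample of fewest reads, and a gene without a symbol overlaps its exons on the same strand. The surface proteoglycan SDC4, the transcription factor IRF1 and the IL6 receptor IL6R were higher in every pair, with log2 fold changes of 0.28, 0.26 and 0.39, and adjusted p-values of limma with the block of 0.160, 0.265 and 0.282. The targets TNFAIP6 and TNFSF10 were lower in every pair, with -0.44 and -0.33 and adjusted p-values of 0.206 and 0.301 in the same fit.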

How the data were processed

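The deposited table holds normalized counts per gene, a scaled signal that the authors made from single-end 3′ reads. Per the study's methods and the submitters' processing notes, molecular identifiers were collapsed, reads were aligned to GRCh38 with STAR, counted per gene with HTSeq and normalized with edgeR. Whether reads were counted by strand is not given in the sources used here, so overlapping exons are given as a limit. All 134256 values were whole multiples of the worth of 1 read (tolerance 0.1 reads), and the reads recovered in this way were used for count models. Because of the molecular identifiers, limits of 3 reads cover counting error only.

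Genes that reached 1 CPM in 2 or more samples were tested with limma 3.58.1 (R 4.3.3) with an intensity trend on log2(normalized count + 1), two-sided, with Benjamini-Hochberg adjustment over 15593 genes. Log2 fold changes are on this scale, which understates changes of genes with few reads. This test had been planned for normalized values and stayed the main test. Same-numbered samples deviated together from their group means (correlations across genes 0.31 to 0.61, mean 0.50, n = 4 pairs), so the numbers of the labels pair the samples, and values with the replicate block are named as such. Alternatives were edgeR 4.0.16 (quasi-likelihood) and DESeq2 1.42.0, and other pseudocounts, filters and scalings. Single samples were also left out, without the block, and pairs were left out with the block.

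The members, lists and tests were chosen with earlier results of these data known. Values in every sample are given for the 12 members of highest mean, for any member called and for any without overlap between groups, with exceptions named in the text, and CXCL1, CXCL2 and CXCL3 are given with their sequence identity as a limit. From the wider list the genes called with the block were named, filled up to 8 by the smallest p-value. Marker lists of kidney epithelium, leukocytes, and endothelium and fibroblasts were listed by hand. Gene positions are from GENCODE 44 (GRCh38) and promoter sequences from RefSeq (GRCh38.p14), which held no window for RELB, NFKBIE, CCL2, IL18, CSF1, LIF and C3.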

Additional observations from a re-analysis of the deposited data

Results flagged for a closer look

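In each group of 4 samples the distance of the highest or lowest sample to its neighbour was set against the range of the group, for 36 members and 2 groups. Of these 72 groups 4 passed the 95% critical value of Dixon's test, where chance alone gives 3.6 at 1 in 20. NFKBIZ in hLcn-2 sample 3 had 65.7 CPM, while the other hLcn-2 samples lay between 33.1 and 37.0 CPM (ratio 0.88). TNIP1 in hLcn-2 sample 4 had 136 CPM, beside 87.0 to 92.4 CPM in the others (ratio 0.889). IL6 in control sample 2 had 4.05 CPM from 54 reads, beside 2.47 to 2.64 CPM in the other controls (ratio 0.887). IL32 in control sample 4, the shallowest library, had 15.8 CPM from 24 reads, beside 26.4 to 28.0 CPM (ratio 0.874).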

How the results depend on the processing

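Of the 36 members, 16 held the sign of their log2 fold change under every alternative run, NFKBIZ, TNFAIP3, BIRC3 and CXCL8 among them, and 20 did not. Over all genes, limma called 0 genes without and 44 with the replicate block. With the block, 233 genes were called by the quasi-likelihood test of edgeR, 173 by DESeq2, 8 with a pseudocount of 0.1, 85 with a mean of at least 10 CPM, 36 with values scaled to the column total, 42 with upper-quartile scaling, and 14, 3, 0 and 58 without the pairs numbered 1, 2, 3 and 4. The 2 count models and the filter on 10 CPM called 1 member, NFKBIZ, and from the wider list 1 gene, 2 genes in DESeq2. In limma the block changed no other call of a member or of the wider list. Leaving out single samples, fitted without the block, called 0 genes. It left 0 to 2 members without overlap, but the matching share of all genes was not computed, so nothing is read from that count. The median log2 fold change then lay between -0.303 and 0.199 for the secreted and between -0.161 and 0.017 for the pathway members. The block without pair 1 or pair 2 and the block with another scaling were chosen after seeing the data.

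Signs turned both in members near 0 and in IRAK2, IRAK1, C3 and LIF. Those of IRAK1 and C3 turned only when single samples were left out, and in no fit with the block. Fits without a single sample had no block, so that the number of that sample remained in 1 group only. Scaling to the column total, without or with the block, gave BIRC2 -0.0039 and CSF1 -0.011. DESeq2 gave CXCL1 0.027, CXCL5 -0.058 and CSF1 -0.023, and with the block CXCL1 0.0081 and CXCL5 -0.012. The quasi-likelihood test of edgeR gave CXCL5 -0.065 and CSF1 -0.022, and with the block TRAF3 0.019, CXCL1 0.033 and CXCL5 -0.018. A pseudocount of 0.1 gave CXCL3 0.49, without or with the block. With the block and without pair 1, CCL2 was at -0.065, IL32 at 0.046, LIF at -0.17 and PTX3 at 0.040, and without pair 2, REL was at 0.078. Without pair 3, REL was at 0.11, CXCL2 at -0.13, CXCL3 at 0.39, CCL2 at -0.077, IL32 at 0.10 and PTX3 at 0.032. Without pair 4, RELA was at 0.037, TNIP1 at -0.092, BIRC2 at -0.0024, TRAF3 at 0.059, IRAK2 at -0.026, CXCL1 at 0.030, CXCL5 at -0.14 and CSF1 at -0.045.

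Leaving out single samples moved BIRC2 between -0.016 and 0.12, C3 between -0.49 and 0.11, CCL2 between -0.22 and 0.48, CSF1 between -0.22 and 0.22, CXCL1 between -0.48 and 0.36, CXCL2 between -0.19 and 0.64, CXCL3 between -0.68 and 0.38, CXCL5 between -0.30 and 0.20, IL18 between -0.23 and 0.042, IL32 between -0.27 and 0.051, IRAK1 between -0.36 and 0.017, IRAK2 between -0.028 and 0.75, LIF between -0.20 and 0.55, NFKB1 between -0.0075 and 0.17, NFKBIA between -0.23 and 0.16, PTX3 between -0.42 and 0.29, REL between -0.19 and 0.11, RELA between -0.19 and 0.051, TNIP1 between -0.090 and 0.12, and TRAF3 between -0.19 and 0.089. Values that held their sign but moved by over 1.5 times were those of NFKB2 (-0.41 to -0.051), RELB (0.14 to 0.33), NFKBIB (-0.27 to -0.085), NFKBIE (-0.40 to -0.14), TRAF1 (0.050 to 0.51), TRAF2 (-0.46 to -0.14), MYD88 (0.12 to 0.41), ICAM1 (-0.31 to -0.15), TNFAIP2 (0.042 to 0.30), CXCL8 (-0.89 to -0.26), CCL20 (0.29 to 0.70), IL6 (-0.86 to -0.091) and IL1B (-0.47 to -0.013), and in the wider list of PLK2 (-0.49 to -0.15), SDC4 (0.16 to 0.43), IRF1 (0.15 to 0.42), IL6R (0.18 to 0.57) and TNFAIP6 (-0.66 to -0.21). The cause of these turns was not tested. Depth limits IRAK2, CXCL3, CCL20, IL6, IL1B and LIF, which had 3 reads or fewer in at least 1 sample.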
